A study of Caenorhabditis elegans with 6 samples.

Results

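The numbered nuclear hormone receptor genes of *Caenorhabditis elegans* were compared between whole alg-1(gk214) mutant larvae and whole N2 wild type larvae. A gene was counted as a member if its symbol on the array platform was nhr- followed by digits, with nhr-23, nhr-25, nhr-41, nhr-85 and nhr-67 left out. This gave 249 members among the 17118 genes with a probe set of their own. Each member was read from 1 probe set, the one with the highest mean over the 6 arrays. The members whose mean lay at or above the median of all probe sets, 6.034 on the log2 scale, numbered 79 and are called above-median members. The remaining 170 are described apart. The limit fell between nhr-236 (6.14) and nhr-173 (6.07) just inside it and nhr-28 (6.030) and nhr-84 (5.97) just outside it. A further 14 numbered receptor symbols were met only on probe sets that carry several symbols. The lipid receptor gene nhr-62 was one of these, and none of them was read.

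Nuclear hormone receptors are transcription factors with a zinc finger domain that binds DNA and, in most members, a domain that can bind a small lipid-like ligand. Nematodes have an unusually large set of them, much of it derived from a receptor related to vertebrate HNF4, a regulator of metabolism in liver and gut. In the worm, receptors of this family are known for control of fat metabolism, of vitamin and metal balance, of responses to toxins and microbes, and of larval development. ALG-1, the product of the mutated gene, is an Argonaute that represses mRNAs together with microRNAs.

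The mutant animals carried the gk214 allele of alg-1, and N2 animals were the wild type. There were 3 arrays of each genotype, labelled as independent replicates. Synchronized larvae were grown at 25 °C on OP50 bacteria and taken at the L4 stage, the last larval stage, and total RNA of whole worms was hybridised to Affymetrix arrays. The labels do not say how many animals were pooled for an array, nor how closely the L4 larvae of the genotypes were matched in age. RNA of whole worms cannot tell less RNA per cell from fewer cells of a type.

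The deposited values are log2 signals, and changes are mutant minus wild type with their standard error (SE). Adjusted p-values are those of limma over all 22548 probe sets, with a threshold of 0.05. Over all probe sets, 33.7% passed. The alg-1 gene itself was lower in the mutant by 0.73 (SE 0.0846, adjusted p = 0.000245). Where its probes lie relative to the deleted stretch is not known here. Array medians ran from 6.01 to 6.02 in the mutant and from 6.01 to 6.05 in the wild type. The array of wild type replicate 3 stood apart in the difference between the 3′ and 5′ GAPDH control probe sets, at −0.58, against −0.22 to −0.14 on the mutant arrays and −0.23 on both other wild type arrays. The totals are therefore also given without it, and the counts of the gene lists and of neighbouring genes wherever they differed without it.

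Few of the receptor genes differed between the genotypes, and the differences were small. Of the 249 members, 25 were higher in the mutant (10.04%) and 19 were lower (7.63%), while over all genes 14.4% were higher and 20.1% were lower. The groups of 3 arrays did not overlap for 75 members (30.1%), against 48.7% of all genes. The nhr-91 gene was the only member to pass at 2-fold or more, whereas 3.21% of all genes rose and 1.93% fell by that much. The median change of the members was 0.00064 and that of all genes was −0.06. The change was above 0 in 125 members and below 0 in 124. Without wild type replicate 3, 34 members were higher and 18 lower. Without mutant replicate 1 the counts were 14 and 11. With each array centred on its bacterial spike-in (hybridization) control probe sets, 51 members were higher and 11 lower. That centring moved the median change of all probe sets from −0.05 to 0.09 and the share of higher calls among all calls from 44.0% to 69.6%. The balance of rises and falls in the family is to be read against that shift.

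**Figure D1:**
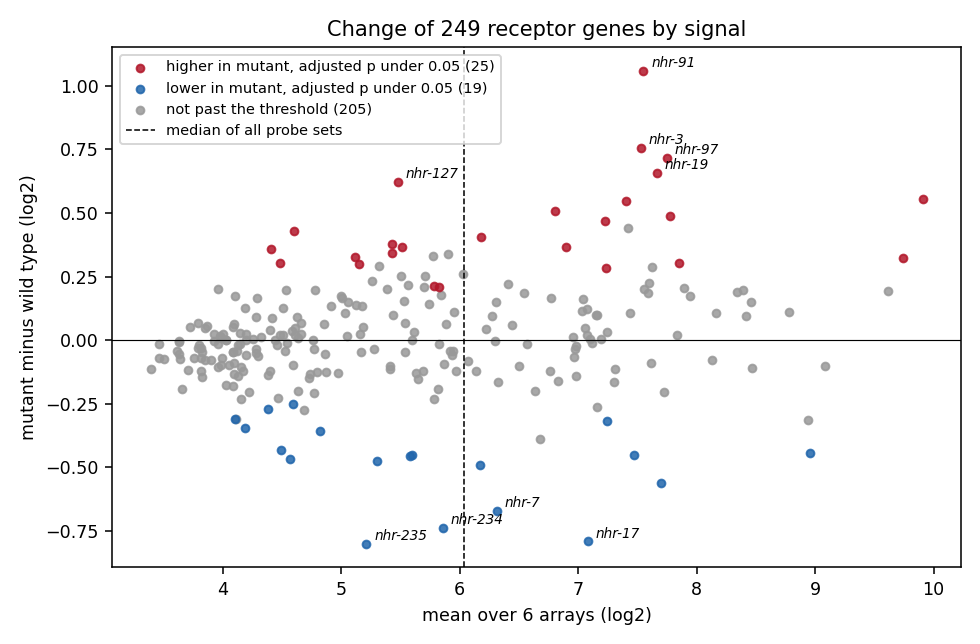
Each point is 1 of the 249 receptor genes, with its mean over 6 arrays on the x axis and its change, mutant minus wild type, on the y axis, both log2. The 25 genes past the threshold and higher and the 19 past it and lower lie on both sides of the dashed median of all probe sets, and nhr-91 alone passes 1.

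The share of genes past the threshold differed between signal classes, so members were also set beside genes of their own class. Among the 79 above-median members, 14 were higher (17.7%) and 7 were lower (8.86%). Among all 8525 above-median genes, 22.2% were higher and 26.9% were lower. The groups did not overlap for 29 of these members (36.7%), against 64% of the above-median genes. In the class from the 50th to the 75th percentile of signal, 27.7% of 65 members and 49.4% of 4196 genes passed. Above the 75th percentile the shares were 21.4% of 14 members and 49.01% of 4330 genes. Among the 170 members below the median, 11 were higher (6.47%) and 12 were lower (7.06%), beside 6.63% and 13.4% of all genes there. From the 25th to the 50th percentile 19.3% of 88 members and 31.8% of 4267 genes passed. Below the 25th percentile the shares were near each other, at 7.32% of 82 members and 8.44% of 4325 genes. The median SD within a group was 0.12 for above-median members and 0.10 for above-median genes. The difference in shares was not tested, since the members were chosen with results of these data known. Without wild type replicate 3, 18 above-median members were higher and 7 lower. Without wild type replicate 1, 16 were higher and 11 lower.

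**Figure D2:**
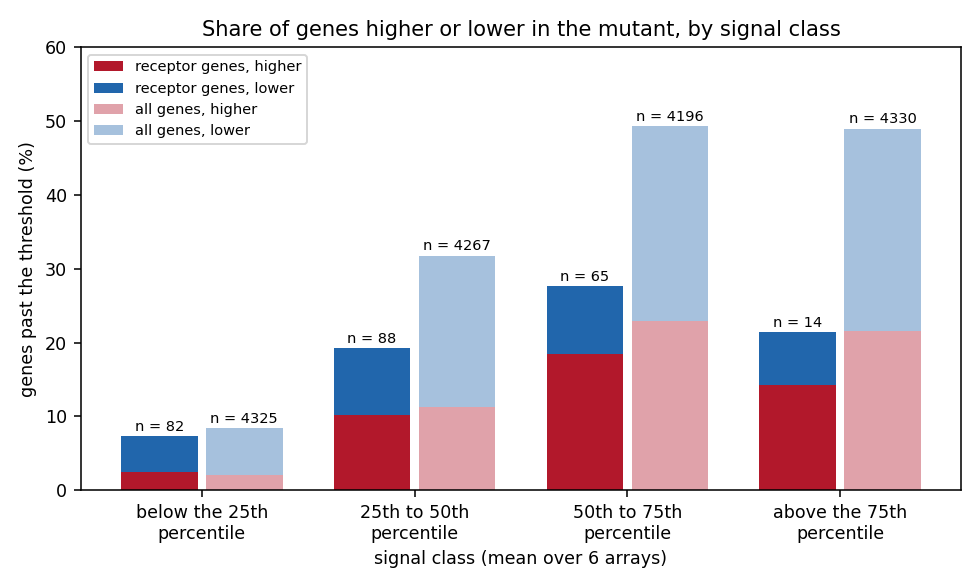
Bars give the percentage of genes past the threshold in 4 classes of signal, receptor genes in full colour at the left of each pair and all genes in pale colour at the right, with rises at the bottom and falls stacked on top. In both upper classes the receptor bars (27.7% and 21.4%) stand below the bars of all genes (49.36% and 49.01%).

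Markers of several tissues differed between the genotypes as well. Over all genes 14.4% rose and 20.1% fell, and among above-median genes 22.2% and 26.9%. Of 7 epidermis markers, 5 rose and 0 fell. The rises included nhr-25, a receptor gene left out by the rule, while elt-1 (0.04) and elt-3 (−0.12) did not pass. Summed levels add unlogged signals, so genes of high signal weigh most in them. The epidermis sum was 14.73 to 14.76 log2 in the mutant and 13.89 to 14.12 in the wild type. Of 8 neuron markers, 4 rose and 0 fell, with 12.76 to 12.81 in the mutant and 12.45 to 12.46 in the wild type. Of 7 intestine markers, 1 rose and 2 fell, which is near the shares of above-median genes. Their sums were 14.94 to 14.97 in the mutant and 14.82 to 14.87 in the wild type. The rise was cpr-6 (1.85), while ifb-2 (−0.56) and act-5 (−0.30) fell. The higher sum therefore need not hold for the other intestine markers. Of 8 body wall muscle markers, 0 rose and 0 fell by limma and 1 had an unadjusted p under 0.05, with 14.82 to 14.86 in the mutant and 14.89 to 14.92 in the wild type. Germline markers were lower, with 7 falls of 8 and 11.997 to 12.109 in the mutant, against 12.62 to 12.77 in the wild type. Sperm markers were lower too, with 7 falls of 8 (6 without wild type replicate 3) and 7.70 to 7.82 in the mutant, against 8.98 to 9.28 in the wild type. Only 2 of the 8 sperm markers lay above the median. The neuron marker rgef-1 read near the bottom of the array's range, at the 3.86th percentile. The part of these markers' tissues in the receptor changes was not tested.

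Of 4 listed receptors from classes that are conserved between worms, flies and vertebrates, 3 rose and 0 fell. All 4 lay above the median signal, and their median change was 0.42. The list is not complete, and it holds none of the receptors left out by the rule or without a number. Among all above-median genes 22.2% rose and 26.9% fell, and with only 4 receptors the count is given as a description. The nhr-91 gene, the worm counterpart of the vertebrate germ cell nuclear factor GCNF, read 8.106, 7.996 and 8.137 in mutant larvae, against 7.215, 6.997 and 6.852 in wild type larvae. It rose 2.08-fold, the largest rise among the members (change 1.06, SE 0.0994, adjusted p = 7.63e-05). All 3 mutant arrays lay above all 3 wild type arrays, and the gap between the groups was wider than the range within either. The nhr-6 gene, of the NR4A class and known for its part in forming the spermatheca, read 7.57, 7.67 and 7.78 in mutant larvae, against 7.0, 7.07 and 7.32 in wild type larvae. It rose by 0.55 (SE 0.0993, adjusted p = 0.00296). Another nhr-6 probe set also rose, by 0.37 (adjusted p = 0.028). Both nhr-6 probe sets end in _s_at, which marks probes shared between transcripts.

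The nhr-8 and nhr-48 genes belong to the class of DAF-12, the steroid hormone receptor of dauer formation and developmental timing. The nhr-48 gene read 7.397, 7.265 and 7.48 in mutant larvae, against 7.11, 7.02 and 7.16 in wild type larvae, a rise of 0.28 (SE 0.0804, adjusted p = 0.0244). Its groups did not overlap, but the call was lost without mutant replicate 1 (0.28, adjusted p = 0.0832), without mutant replicate 3 (0.23, adjusted p = 0.102) or without wild type replicate 2 (0.25, adjusted p = 0.0771). The nhr-8 gene, known for resistance to toxins and for cholesterol balance, read 8.39, 8.39 and 8.46 in mutant larvae, against 8.31, 8.70 and 8.55 in wild type larvae. These groups overlapped, and the difference of −0.11 (95% interval −0.34 to 0.12) did not pass (adjusted p = 0.452). The daf-12 gene itself, which is no numbered receptor, rose by 1.74 (adjusted p = 1.1e-05).

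Among receptors of lipid metabolism, nhr-49 and nhr-66 rose. Of 6 measured, 5 of them above the median, 2 rose and 0 fell, with a median of −0.03, beside 22.2% and 26.9% of all above-median genes. NHR-49 controls fatty acid desaturation and breakdown and the response to fasting. Its gene read 10.25, 10.06 and 10.24 in mutant larvae, against 9.62, 9.66 and 9.60 in wild type larvae. The groups were well apart, with a rise of 0.56 or 1.47-fold (SE 0.0754, adjusted p = 0.000616). The other nhr-49 probe set was higher by 0.39 (adjusted p = 0.00296). NHR-66, a partner of NHR-49 in control of sphingolipid and lipid genes, was also higher. Its gene read 8.13, 7.82 and 8.09 in mutant larvae, against 7.57, 7.51 and 7.51 in wild type larvae, a rise of 0.49 (SE 0.092, adjusted p = 0.0036). A further nhr-66 probe set was also higher, by 0.38 (adjusted p = 0.00362).

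NHR-80 and NHR-13, the partners of NHR-49 in control of the desaturase genes, had genes that did not pass. The nhr-80 gene read 8.06, 8.12 and 8.08 in mutant larvae, against 8.05, 8.26 and 8.18 in wild type larvae. Its groups overlapped, with a difference of −0.08 (95% interval −0.25 to 0.09, adjusted p = 0.471). The nhr-13 gene read 7.66, 7.64 and 7.58 in mutant larvae, against 7.78, 7.75 and 7.95 in wild type larvae. All its mutant values were the lower ones, but the difference of −0.20 (95% interval −0.38 to −0.03) did not pass (adjusted p = 0.075). The HNF4-like gene nhr-64 differed by 0.02 (95% interval −0.15 to 0.20). The fat storage receptor gene nhr-76, below the median, differed by −0.09 (adjusted p = 0.456).

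Of 9 measured genes known as targets of NHR-49 or NHR-80, 5 rose and 0 fell, with a median of 0.39 beside −0.06 over all genes. Over all genes 14.4% rose and 20.1% fell. The desaturase gene fat-5 read 9.61, 9.28 and 9.47 in mutant larvae, against 7.01, 7.75 and 8.01 in wild type larvae. It rose 3.64-fold (change 1.86, SE 0.222, adjusted p = 0.000299) with the groups well apart. The glyoxylate cycle gene icl-1 rose by 0.49 (adjusted p = 0.00317) and the desaturase gene fat-6 by 0.39 (adjusted p = 0.00373), both on probe sets ending in _s_at. The flavin monooxygenase gene fmo-2 rose by 0.85 (adjusted p = 0.0164), but not without mutant replicate 1 (0.63, adjusted p = 0.0535) or mutant replicate 3 (0.77, adjusted p = 0.0702). Its signal lay below the median, and it read 6.44, 5.40 and 6.16 in mutant larvae, against 5.16, 5.18 and 5.13 in wild type larvae. The remaining call was hacd-1 at 0.42 (adjusted p = 0.046), whose groups overlapped and which did not pass without wild type replicate 3, leaving 4 rises. The third desaturase gene, fat-7, had low signal and differed by −0.14 (adjusted p = 0.18). The highly expressed target acs-2 differed by 0.24 with overlapping groups and did not pass (adjusted p = 0.107). The targets cpt-5 (−0.29) and ech-1.1 (−0.09), both below the median, did not pass either.

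None of the 3 receptors tied to vitamin B12 and propionate passed by limma, and 0 had an unadjusted p under 0.05. All 3 lay above the 75th percentile of signal, where 49.01% of all genes passed. With only 3 receptors the count is given as a description. NHR-10 and NHR-68 switch on the propionate shunt when vitamin B12 is low, and NHR-114 acts on the methionine cycle. The nhr-68 gene read 9.85, 9.67 and 9.60 in mutant larvae, against 9.67, 9.58 and 9.30 in wild type larvae, a difference of 0.19 (95% interval −0.06 to 0.45, adjusted p = 0.22). The nhr-10 gene differed by 0.10 (95% interval −0.09 to 0.28, adjusted p = 0.424). The nhr-114 gene read 8.81, 8.84 and 8.70 in mutant larvae, against 8.76, 9.02 and 9.51 in wild type larvae. Its wild type arrays were spread more widely than its mutant arrays, with replicate 3 the highest, and the difference was −0.31 (95% interval −0.68 to 0.06, adjusted p = 0.176).

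Most enzymes of the propionate shunt were lower. Of 5 measured, all above the median, 0 rose and 4 fell, with a median of −0.50, beside 26.9% of above-median genes that fell. The hydrolase gene hach-1 read 10.63, 10.62 and 10.46 in mutant larvae, against 11.09, 11.34 and 11.31 in wild type larvae, a fall of 0.67 on the log2 scale (SE 0.0898, adjusted p = 0.000549). The transhydrogenase gene hphd-1 changed by −0.54 (adjusted p = 0.00039), the dehydrogenase gene alh-8 by −0.50 (adjusted p = 0.000666) and the hydratase gene ech-6 by −0.33 (adjusted p = 0.0052). The probe sets of hphd-1, alh-8 and ech-6 end in _s_at, and that of hach-1 does not. The ech-6 call was lost with centring on the hybridization controls (−0.19, adjusted p = 0.122). The exception was acdh-1, the acyl-CoA dehydrogenase of the first step, which read 12.93, 12.92 and 12.91 in mutant larvae, against 12.995, 12.961 and 12.9 in wild type larvae (difference −0.03, adjusted p = 0.751). Of 5 methionine cycle genes, 0 rose and 0 fell by limma and 1 had an unadjusted p under 0.05, with a median of −0.09 and differences from −0.16 to −0.03.

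**Figure D3:**
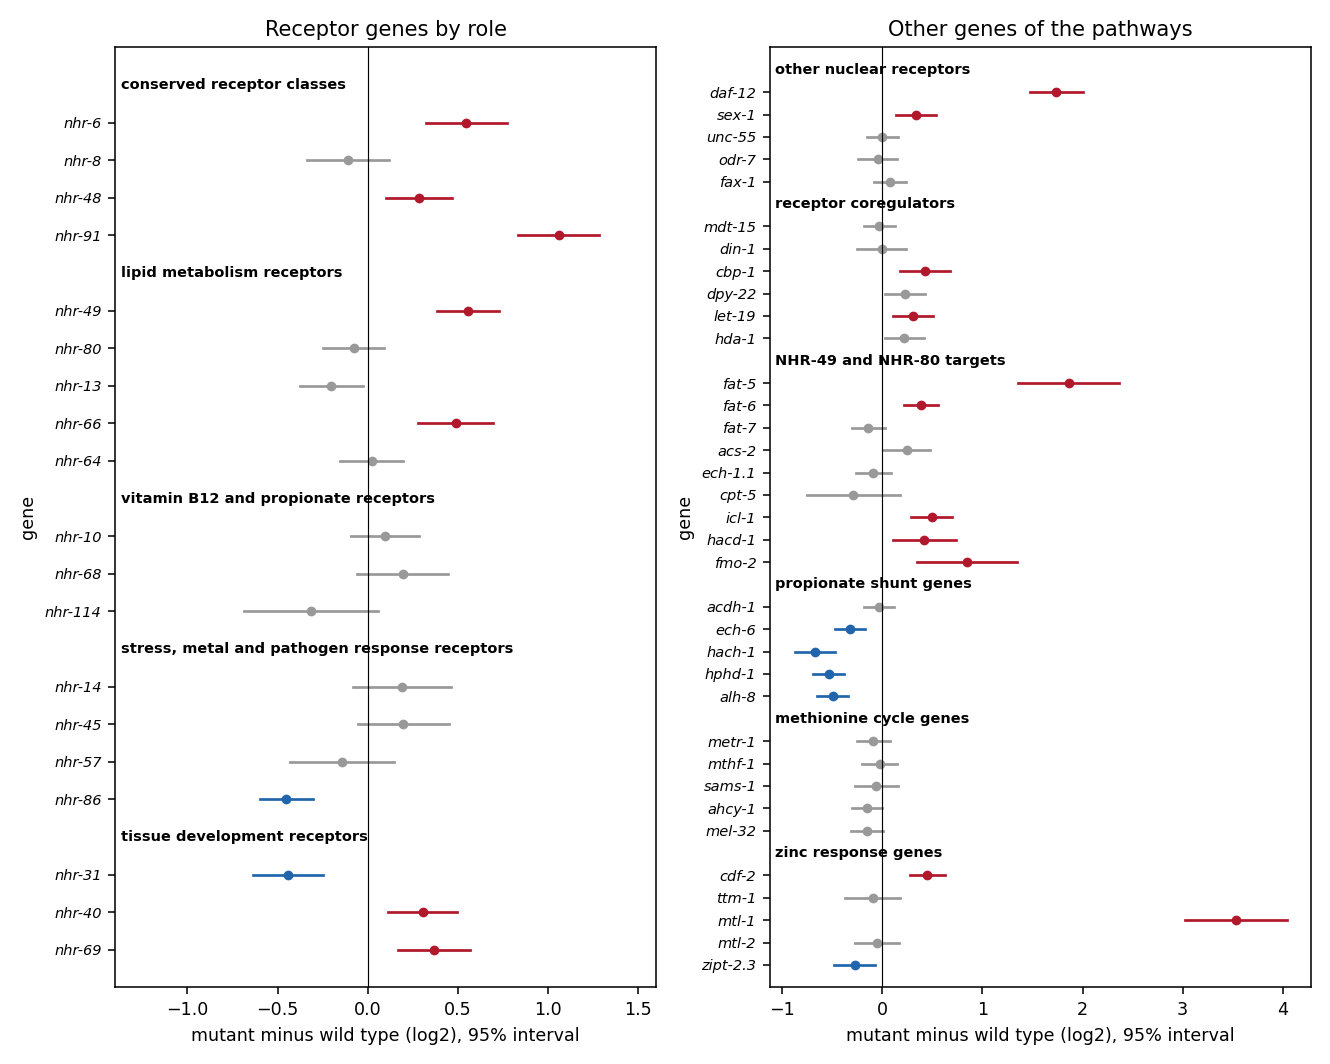
Points give the change, mutant minus wild type (log2), and bars its 95% interval from the limma fit, for above-median receptor genes by role at the left and for the other genes of their pathways at the right, with different x scales. Red marks genes past the threshold and higher, blue those past it and lower, and grey the rest. The nhr-91 interval and the nhr-49 interval lie above 0, and 4 of the 5 propionate shunt genes lie below it.

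Receptors of stress, metal and pathogen responses gave 0 rises and 1 fall among 4 measured, a share close to the 26.9% of above-median genes that fell, with a median of 0.03. NHR-86 senses a bacterial phenazine and switches on defence genes. Its gene read 7.23, 7.25 and 7.26 in mutant larvae, against 7.68, 7.73 and 7.68 in wild type larvae. The arrays of each genotype lay within 0.1 of each other, and the fall was 0.45 on the log2 scale (SE 0.0641, adjusted p = 0.000787). The probe set ends in _s_at, which marks probes shared between transcripts. The nhr-45 gene, known from surveillance of mitochondria, differed by 0.20 (adjusted p = 0.212), and nhr-14, known from iron uptake and defence, by 0.19 (adjusted p = 0.259). The nhr-14 gene passed without wild type replicate 3, at 0.34 (adjusted p = 0.00875). The hypoxia-responsive gene nhr-57 differed by −0.14 (95% interval −0.43 to 0.15, adjusted p = 0.442). The zinc sensor gene nhr-33 had no probe set of its own. Of 5 genes of the zinc response, 2 rose and 1 fell, with a median of −0.05, beside 14.4% and 20.1% of all genes. Without wild type replicate 3 the counts were 2 and 0. The rises were mtl-1 (3.53, adjusted p = 7.24e-06) and the zinc transporter gene cdf-2 (0.45, adjusted p = 0.00206), while zipt-2.3 fell by 0.28 (adjusted p = 0.0445). The genes ttm-1 (−0.10) and mtl-2 (−0.05) did not pass. The zipt-2.3 call was lost in 9 of 15 alternatives at the same threshold, among them without mutant replicate 3 (adjusted p = 0.165) and without wild type replicate 3 (adjusted p = 0.093).

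Receptors known from the development of single tissues went both ways, with 2 rises and 1 fall among 5 measured and a median of 0.05, beside 14.4% of all genes that rose and 20.1% that fell. NHR-31 acts in growth of the excretory cell and controls vacuolar ATPase genes there. Its gene read 8.72, 8.81 and 8.67 in mutant larvae, against 9.09, 9.12 and 9.32 in wild type larvae, a fall of 0.44 on the log2 scale (SE 0.0845, adjusted p = 0.00385), also on a probe set ending in _s_at. The nhr-69 gene, known for a part in insulin secretion with the SMAD protein DAF-8, read 7.17, 6.95 and 7.11 in mutant larvae, against 6.59, 6.80 and 6.74 in wild type larvae. It rose by 0.37 (SE 0.0874, adjusted p = 0.0111), but not without mutant replicate 1 (0.32, adjusted p = 0.0532). The nhr-40 gene, known from embryonic and muscle development, read 8.03, 7.90 and 8.08 in mutant larvae, against 7.77, 7.74 and 7.58 in wild type larvae. It rose by 0.30 (SE 0.0836, adjusted p = 0.0214), and the call was lost without mutant replicate 1 (adjusted p = 0.0773) or mutant replicate 3 (adjusted p = 0.0902). Another nhr-40 probe set, ending in _s_at, differed by 0.27 with overlapping groups and did not pass (adjusted p = 0.117). The seam cell gene nhr-60 and the early embryo gene nhr-2, both below the median, differed by 0.05 and −0.06 (adjusted p = 0.685 and 0.568).

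Several of the larger rises were in receptors with no assigned role here. The nhr-3 gene read 7.91, 7.92 and 7.88 in mutant larvae, against 6.94, 7.33 and 7.18 in wild type larvae, a rise of 0.76 (SE 0.1, adjusted p = 0.000535). The mutant arrays lay close together and the wild type arrays did not, and the second nhr-3 probe set rose by 0.41 (adjusted p = 0.0299). Both nhr-3 probe sets end in _s_at. The nhr-97 gene read 8.18, 8.07 and 8.08 in mutant larvae, against 7.79, 7.32 and 7.06 in wild type larvae, a rise of 0.72 (SE 0.158, adjusted p = 0.00777). A further nhr-97 probe set was also higher, by 0.32 (adjusted p = 0.0277). The nhr-19 gene read 8.11, 7.87 and 7.99 in mutant larvae, against 7.54, 7.21 and 7.25 in wild type larvae, a rise of 0.66 (SE 0.105, adjusted p = 0.00146). In all 3 genes the groups did not overlap, and wild type replicate 1 was the wild type array nearest to the mutant in nhr-97 and nhr-19 but the farthest in nhr-3.

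Smaller rises were those of nhr-43, nhr-116 and nhr-158. The nhr-43 gene read 7.096, 6.871 and 7.196 in mutant larvae, against 6.46, 6.48 and 6.70 in wild type larvae (change 0.51, SE 0.105, adjusted p = 0.00573). The nhr-116 gene read 7.404, 7.504 and 7.48 in mutant larvae, against 7.04, 7.02 and 6.92 in wild type larvae (change 0.47, SE 0.0709, adjusted p = 0.00111). The groups were separate in both. The nhr-158 gene read 6.26, 6.38 and 6.52 in mutant larvae, against 6.22, 5.98 and 5.74 in wild type larvae (change 0.40, SE 0.122, adjusted p = 0.0318). Its groups nearly touched, and the call was lost without mutant replicate 2 (adjusted p = 0.0805) or 3 (adjusted p = 0.123) and without wild type replicate 2 (adjusted p = 0.0703) or 3 (adjusted p = 0.0737).

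Probe sets of nhr-88 disagreed. The chosen one read 9.94, 9.86 and 9.90 in mutant larvae, against 9.63, 9.62 and 9.48 in wild type larvae, a rise of 0.32 (SE 0.0725, adjusted p = 0.00855). Its probe set ending in _x_at changed by −0.65 (adjusted p = 0.000698) and another by −0.22 (adjusted p = 0.0338), while the last differed by −0.12 (adjusted p = 0.466). The mean over the 4 probe sets differed by −0.17 (adjusted p = 0.0751), so no direction is given for this gene, which the count of 14 rises includes by its chosen probe set.

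The falls among above-median members included 4 receptors with no assigned role here that changed by nearly 0.5 or more. The nhr-17 gene read 6.68, 6.55 and 6.83 in mutant larvae, against 7.11, 7.64 and 7.69 in wild type larvae, a fall of 0.79 on the log2 scale (SE 0.151, adjusted p = 0.00378). Levels in the wild type were 1.73 times those in the mutant. The nhr-7 gene read 5.93, 5.98 and 6.02 in mutant larvae, against 6.39, 6.79 and 6.76 in wild type larvae, a fall of 0.67 (SE 0.109, adjusted p = 0.00159). In both genes wild type replicate 1 was the wild type array nearest to the mutant. The nhr-130 gene read 7.39, 7.44 and 7.43 in mutant larvae, against 7.94, 7.86 and 8.16 in wild type larvae, a fall of 0.56 (SE 0.088, adjusted p = 0.00134). The nhr-55 gene read 5.78, 5.96 and 6.05 in mutant larvae, against 6.27, 6.25 and 6.74 in wild type larvae, a fall of 0.49 (SE 0.136, adjusted p = 0.0222). The nhr-55 call was lost without mutant replicate 1 (adjusted p = 0.0917) or 2 (adjusted p = 0.0556). The nhr-47 gene read 7.02, 7.09 and 7.16 in mutant larvae, against 7.34, 7.38 and 7.49 in wild type larvae, a fall of 0.32 (SE 0.0751, adjusted p = 0.0109). This call was lost without mutant replicate 1 (adjusted p = 0.0534), with centring on the hybridization controls (−0.18, adjusted p = 0.151) and with the mean of both probe sets (−0.17, adjusted p = 0.0829). Of the 7 above-median falls, 4 were read from probe sets ending in _s_at, against 2 of the 14 rises.

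**Figure D4:**
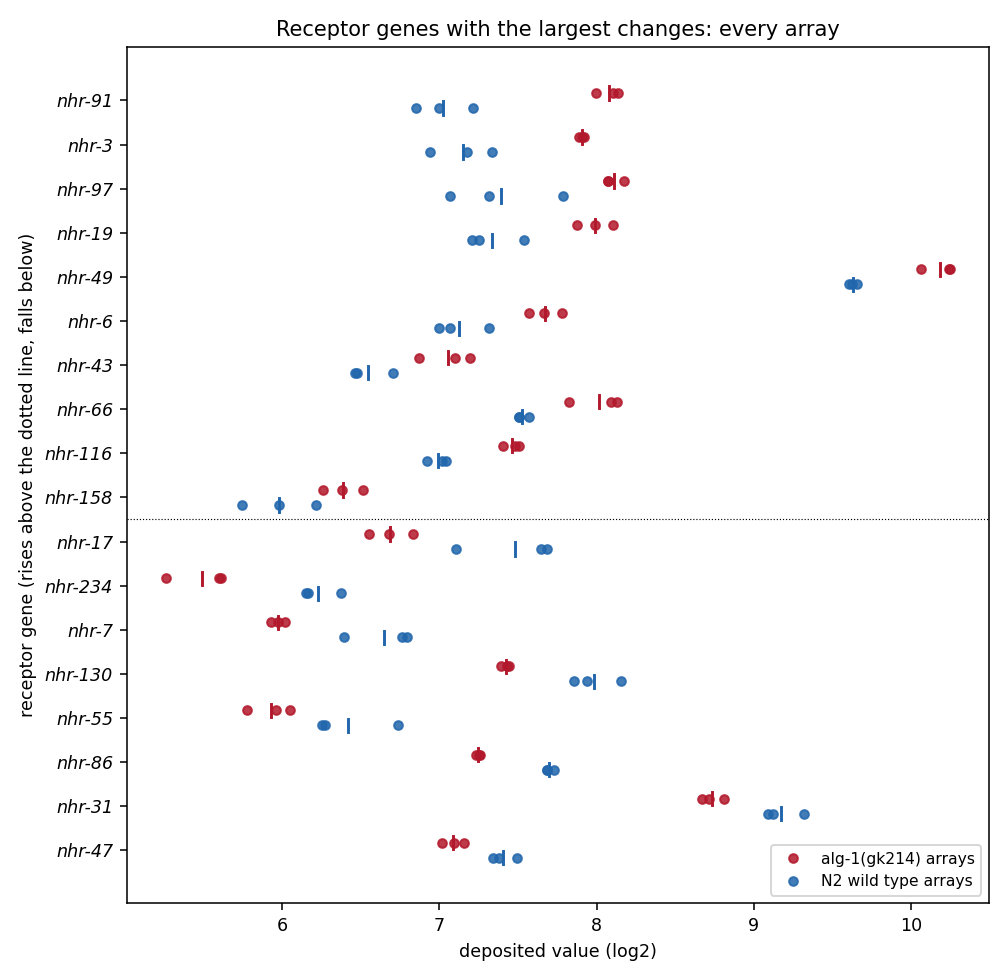
Every array is shown for the 10 largest rises and the 8 falls that met the naming rule, on the deposited log2 scale. For each gene the 3 mutant arrays (red) are drawn above the 3 wild type arrays (blue), with short bars at the means. Separate groups were part of the naming rule, so the picture shows only how far apart they lie, widely in nhr-91 and narrowly in nhr-158. The mean of nhr-234 over 6 arrays is below the median, and it is shown because its wild type mean is above it.

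The other 58 above-median members did not pass. Their changes lay within 0.2 of 0 in 47 cases, and 53 had a 95% interval inside −0.5 to 0.5. The groups overlapped in 50 of them. The 8 with separate groups, named after their values were seen, were nhr-137 (0.22), nhr-42 (0.20), nhr-243 (0.19) and nhr-120 (0.22) with the mutant above, and nhr-13, nhr-65 (−0.39), nhr-106 (−0.20) and nhr-5 (−0.17) with the mutant below. Closest to the threshold were nhr-65 (adjusted p = 0.0521) and nhr-120 (adjusted p = 0.0528). The largest difference short of the threshold was that of nhr-21, at 0.44 (95% interval 0.06 to 0.82, adjusted p = 0.0725), where wild type replicate 1 read 7.601 among mutant values of 7.78, 7.46 and 7.68.

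Below the median signal, 11 members rose by 0.21 to 0.62 and 12 fell by 0.25 to 0.80. The nhr-235 gene read 4.70, 5.00 and 4.74 in mutant larvae, against 5.35, 5.48 and 6.01 in wild type larvae. Its change of −0.80 (SE 0.165, adjusted p = 0.00553) was the largest fall of any member. The nhr-234 gene, below the limit by its mean over 6 arrays but above it in the wild type, read 5.26, 5.61 and 5.60 in mutant larvae, against 6.15, 6.16 and 6.37 in wild type larvae. It fell by 0.74 (SE 0.111, adjusted p = 0.00107). The groups of both genes were separate.

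Among the low rises, nhr-127 was the largest. It read 5.84, 5.92 and 5.61 in mutant larvae, against 4.98, 5.32 and 5.21 in wild type larvae, a rise of 0.62 (SE 0.111, adjusted p = 0.00264). The nhr-38 gene read 4.82, 4.83 and 4.80 in mutant larvae, against 4.499, 4.287 and 4.371 in wild type larvae, a rise of 0.43 (SE 0.0757, adjusted p = 0.00248). Its mutant arrays were nearly equal. The other low rises were nhr-203 (0.38), nhr-96 (0.37), nhr-181 (0.36), nhr-63 (0.34), nhr-206 (0.33), nhr-280 (0.30), nhr-143 (0.30), nhr-44 (0.21) and nhr-50 (0.21), and each of these 9 lost its call without at least 1 of the arrays.

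The other low falls that kept their call under each of the 15 alternatives at the same threshold that tested them, which leaves out the filter at the median, were nhr-161 (−0.48), nhr-156 (−0.47) and nhr-115 (−0.45). The nhr-115 gene read 5.35, 5.43 and 5.34 in mutant larvae, against 5.80, 5.80 and 5.87 in wild type larvae (adjusted p = 0.00113), with little spread in either group. The falls of nhr-148 (−0.46), nhr-155 (−0.43), nhr-205 (−0.36), nhr-248 (−0.35), nhr-147 (−0.31), nhr-172 (−0.27) and nhr-81 (−0.25) did not. Of the 11 members annotated as pseudogenes in the RefSeq table, 10 lay below the median and 0 passed by limma. An unadjusted p under 0.05 was found in 0 of them, and groups were separate in 2 (18.2%). Their median signal lay at the 16.2nd percentile. Among all genes below the 25th percentile, 8.44% passed and 22.5% had separate groups. With 11 genes, nothing about pseudogenes is read from these counts.

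More than 1 probe set was read for 30 members. In 24 of them all probe sets gave the same call. Of the 9 such members whose chosen probe set passed, 5 had another that passed in the same direction, namely nhr-3, nhr-6, nhr-49, nhr-66 and nhr-97. For nhr-3 and nhr-6 both probe sets end in _s_at. In nhr-40, nhr-47 and nhr-50 the other probe set did not pass, and those of nhr-88 disagreed. Only a second probe set passed for nhr-107 (0.60, adjusted p = 0.00221, against 0.23 and 0.0637 for the chosen one) and nhr-71 (0.28, adjusted p = 0.015, against 0.21 and 0.145), both named after their values were seen.

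Many receptor genes lie next to each other in the genome. In the gene order of assembly WBcel235, 121 members stood directly beside another numbered receptor gene and 128 did not. Of those beside another, 23 were above the median signal (19.01%), against 56 of the others (43.8%). The share past the threshold was 17.4% in the first set and 18.0% in the second. Over all genes 34.6% passed, with 14.4% higher and 20.1% lower. The share was 49.2% among all above-median genes and 20.1% among all genes below the median. The first set held 9 rises and 12 falls, and the second 16 rises and 7 falls. Without wild type replicate 3 these were 9 and 11 (16.5% past the threshold), and 25 and 7 (25%). Probe sets differ in how strongly they bind, and neither difference was tested.

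The members beside another receptor gene lay in 44 runs, the longest with 8 receptor genes. In 13 runs exactly 1 member passed, and in 4 runs 2 members passed. In each of those 4 runs both members went the same way, but without wild type replicate 3 the runs with 2 or more such members were partly others, and 2 of the 4 held changes in both directions. The pair nhr-234 and nhr-235 is a run of its own, and both fell. In a run of 6, the neighbours nhr-55 and nhr-130 fell while nhr-99 and nhr-212 differed by 0.33 and 0.25 without passing. The neighbours nhr-50 and nhr-63 rose, as did nhr-44 and nhr-143 of another run of 6. The rises of those 4 genes were among the calls lost when single arrays were left out. Whether neighbouring genes share probe signal was not tested. Of these 8 genes, nhr-50 and nhr-44 were read from probe sets marked as shared.

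**Figure D5:**
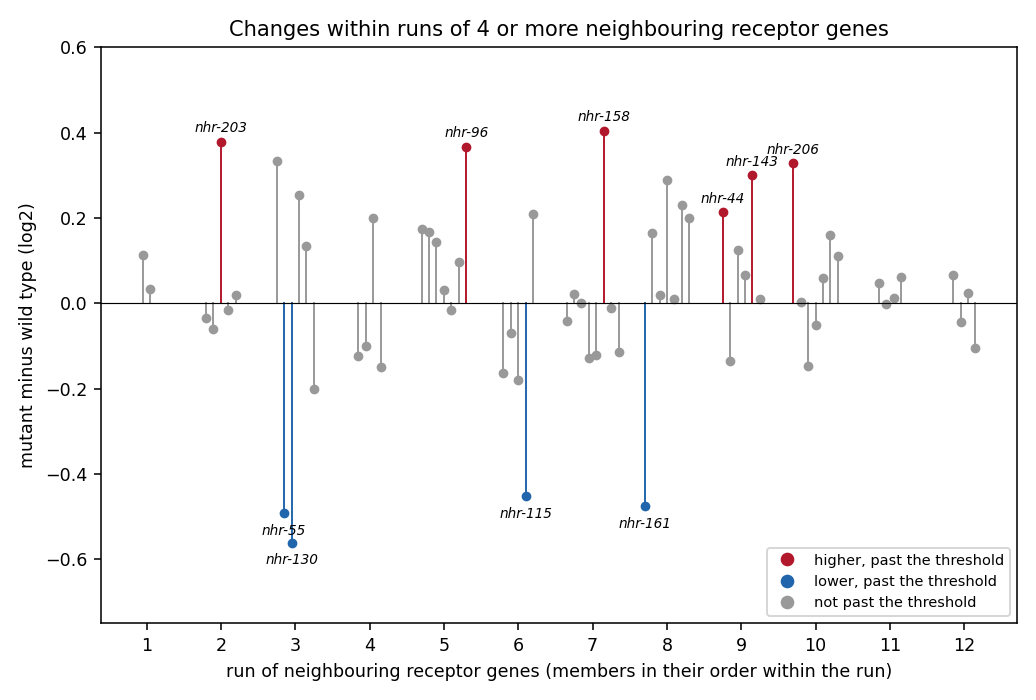
Stems give the change, mutant minus wild type (log2), of each measured member in the 12 runs of 4 or more neighbouring receptor genes, in gene order within a run. Coloured and named points passed the threshold, and most runs hold 1 such gene or none. The nhr-55 and nhr-130 falls stand side by side in run 3 among members that did not pass.

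Of 5 nuclear receptor genes without a number, 2 rose and 0 fell, with a median of 0.08, beside 14.4% and 20.1% of all genes. Besides daf-12 these were sex-1, which acts in sex determination (0.34, adjusted p = 0.0165). The sex-1 probe set ends in _x_at, which also marks shared probes. The neuronal receptor genes unc-55, odr-7 and fax-1 had low signal and differed by 0.00, −0.05 and 0.08. Of 6 coregulators measured, all above the median, 2 rose and 0 fell, with a median of 0.22. Among all above-median genes 22.2% rose and 26.9% fell, and with only 6 genes nothing about the coregulators is read from the 2 rises. Short of the threshold, dpy-22 and hda-1 were higher by 0.23 and 0.22 (adjusted p = 0.0756 and 0.0781), and din-1 differed by −0.01. The count was also 2 without wild type replicate 3, with hda-1 passing in place of let-19. The coactivator gene cbp-1 rose by 0.42 (adjusted p = 0.0171) and the Mediator subunit gene let-19 by 0.31 (adjusted p = 0.0241). Both calls were lost without mutant replicate 1 (adjusted p = 0.0656 and 0.1), cbp-1 also without mutant replicate 3 (adjusted p = 0.0535), and let-19 also without mutant replicate 2 or wild type replicates 1 or 3 (adjusted p = 0.0639, 0.0545 and 0.0552). The Mediator subunit gene mdt-15, which serves NHR-49, differed by −0.03 (adjusted p = 0.767).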

How the data were processed

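RNA of 3 alg-1(gk214) and 3 N2 whole-worm samples was measured on Affymetrix arrays. The deposited table gives log2 values, 1 for each probe set on each array. The submitters' processing notes name Affymetrix Power Tools. Its version and the normalization are not stated in the labels or the file, and the values themselves showed the log2 scale. They were used unchanged.

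The 77 control probe sets were left out, and genes came from the platform annotation. Both genotypes were compared with limma 3.58.1 under R 4.3.3 (lmFit and eBayes, Benjamini-Hochberg adjustment over 22548 probe sets). This step was tested on simulated data. The labels call the replicates independent. With 3 arrays a genotype, their number limits the precision. Members and lists were chosen with earlier results of these data known, so lists are described by counts and medians.

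The naming rule took the 10 largest rises and the 10 largest falls with separate groups and a higher mean at or above the median (8 falls met it), above-median members of the role lists, members at the signal limit, and up to 4 genes of each pathway list with the smallest p. Other called members, and acdh-1, fat-7, hacd-1, fmo-2, mdt-15 and other genes outside the rule, were named after their values were seen.

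Alternatives were other normalizations, filters, variance models and probe set choices, a replicate block, a threshold of 0.01, and leaving out each array.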

Additional observations from a re-analysis of the deposited data

How the results depend on the processing

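Of the 44 receptor genes past the threshold, 21 kept their call and direction under each alternative at 0.05 that tested them, 14 of them above the median signal. Of these 21, 9 were tested under all 16 alternatives, 7 were not tested with the filter at the median and 5 were not tested on unshared probe sets. With centring on the hybridization controls there were 51 rises and 11 falls among members, 24 of the rises above the median, and the median change of members was 0.139. With the filter at the median there were 15 rises and 8 falls (median change of members 0.0586), since fewer genes were tested. At a threshold of 0.01 there were 12 rises and 10 falls, and the count of all probe sets called was 4767. On probe sets without shared probes, where fewer were tested, 3 above-median members fell and all probe sets called numbered 4715. Leaving out each array in turn gave 14 to 34 rises and 11 to 27 falls, with 5 to 11 falls above the median. Without wild type replicate 3, 37 of the 44 calls remained, 20 of the 21 above the median. With the replicate block 46 members passed, 41 of them among the 44, with 25 rises and 21 falls, and all probe sets called numbered 7766. Deviations of same-numbered arrays correlated at 0.213, 0.126 and 0.0808, and those of differently numbered arrays at −0.201 to 0.103. Each mutant array correlated best with the wild type array of its number, but wild type replicate 3 correlated best with mutant replicate 2. The labels call the replicates independent and give no pairing, so the main fit used none. Whether same-numbered arrays belong together was not tested.

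The direction of nhr-88 turned with the mean of all probe sets (−0.165). Signs of genes that did not pass turned with centring on the hybridization controls in nhr-8 (0.0291), nhr-80 (0.0599), metr-1 (0.0470), sams-1 (0.0755), odr-7 (0.0910) and ttm-1 (0.0394). They turned with quantile normalization in nhr-64 (−0.0245) and odr-7 (0.0237), with array weights in odr-7 (0.0138) and with the mean of probe sets in sams-1 (0.0259). Leaving out single arrays gave −0.0196 to 0.0726 for nhr-64, −0.122 to 0.0252 for sams-1, −0.128 to 0.0222 for odr-7 and −0.180 to 0.0502 for ttm-1. The causes were not tested.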
